A study of Homo sapiens with 12 samples.

Results

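The genes described here are 10 imprinted genes, DLK1, MEG3, IGF2, H19, PEG3, PEG10, MEST, NNAT, GRB10 and PLAGL1, out of 58302 genes counted in human neural progenitor cells (NPCs) and the cells derived from them. The 10 genes were picked from well-known imprinted genes with their levels in these samples already known, so their values, fold changes and calls are given as a description, and no p-value is printed for any of them. All 10 were counted in the files, and 7 of them passed a filter of 20 counts or more on average per sample, as did 13454 genes in all. MEG3, PEG3 and H19 did not pass it.

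RNA was sequenced in 12 samples of H1, a human embryonic stem cell line, with 2 samples in each of 6 groups. WT NPCs carried no deletion, and dKO cells carried a UTX and JMJD3 knockout, made by deleting the catalytic domains of these histone demethylases from selected stem cell clones. Removal of the trimethyl mark from lysine 27 of histone H3 is the known activity of both enzymes. NPCs of either genotype were sampled at passage 2 and at passage 4, and WT-D28 and dKO-D28 cells were passage 2 NPCs differentiated without bFGF and EGF for 28 days. By the study's methods, the medium of that differentiation held added GDNF, BDNF and cAMP. All cells had first been driven to a neural fate by inhibitors of TGFb and BMP signalling. The labels do not say whether the 2 samples of a group were separate cultures, so each p-value measures only the spread between these samples, which may be technical.

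An imprinted gene is transcribed mainly from the copy inherited from 1 parent. The silent copy is marked by DNA methylation set in the germ line at a control region, and many imprinted genes lie in clusters that share such a region. In the DLK1-DIO3 cluster the protein-coding genes DLK1, RTL1 and DIO3 are transcribed from the paternal copy and the non-coding RNA MEG3 from the maternal copy. In the IGF2-H19 cluster the growth factor gene IGF2 is paternal and the non-coding RNA H19 maternal, and the insulator protein CTCF separates IGF2 from its enhancers on the maternal copy. These counts do not separate the parental copies, so imprinting itself was not measured.

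Promoter sequences from RefSeq (GRCh38.p14), 250 bases before to 50 bases after a transcript start, were found for 5 of the 10 genes: MEG3, H19, MEST, GRB10 and PLAGL1. No sequence is shown for DLK1, IGF2, PEG3, PEG10 or NNAT. Below are 4 promoters: those of both maternal non-coding RNAs, which had few or no reads in these samples, and the promoters of MEST and PLAGL1 with the most motif matches. They are MEG3 at chr14:100825858-100826157 (plus strand), H19 at chr11:2001217-2001516 (minus strand), MEST at chr7:130491835-130492134 (plus strand) and PLAGL1 at chr6:144008210-144008509 (minus strand). Capitals mark TGCCGC on either strand, the core bound by the imprint maintenance factor ZFP57 when methylated, and GGGGCCCC, a palindrome close to the site bound by PLAGL1 itself.
MEG3: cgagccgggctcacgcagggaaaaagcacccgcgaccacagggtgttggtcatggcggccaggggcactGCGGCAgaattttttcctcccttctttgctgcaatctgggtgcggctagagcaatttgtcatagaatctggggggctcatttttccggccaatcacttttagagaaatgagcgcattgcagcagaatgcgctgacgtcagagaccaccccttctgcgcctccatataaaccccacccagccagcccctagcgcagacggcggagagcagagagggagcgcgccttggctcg
H19: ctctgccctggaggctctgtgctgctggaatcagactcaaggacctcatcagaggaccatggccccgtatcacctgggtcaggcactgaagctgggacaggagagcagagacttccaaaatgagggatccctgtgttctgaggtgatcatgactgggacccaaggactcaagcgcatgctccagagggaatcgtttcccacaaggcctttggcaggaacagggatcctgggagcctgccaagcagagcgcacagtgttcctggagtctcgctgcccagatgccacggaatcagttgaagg
MEST: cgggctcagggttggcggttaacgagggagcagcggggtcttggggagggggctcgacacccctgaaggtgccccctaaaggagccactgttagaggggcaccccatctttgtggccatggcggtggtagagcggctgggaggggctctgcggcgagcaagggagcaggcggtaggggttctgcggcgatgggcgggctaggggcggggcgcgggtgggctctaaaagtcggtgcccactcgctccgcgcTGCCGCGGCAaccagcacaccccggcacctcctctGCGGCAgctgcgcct
PLAGL1: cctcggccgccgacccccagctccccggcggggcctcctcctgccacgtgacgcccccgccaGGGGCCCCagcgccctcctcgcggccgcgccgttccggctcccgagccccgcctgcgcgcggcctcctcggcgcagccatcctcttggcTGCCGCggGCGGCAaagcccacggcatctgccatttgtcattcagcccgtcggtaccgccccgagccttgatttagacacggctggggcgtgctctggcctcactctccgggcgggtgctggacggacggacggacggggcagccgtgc
The MEST promoter held 3 copies of TGCCGC, a forward and a reverse copy of which overlap. The PLAGL1 promoter held 2 copies and 1 GGGGCCCC, the MEG3 promoter held 1 copy and the H19 promoter held neither motif. Of 35116 human promoters of this length, 16.7% held TGCCGC and 1.95% held GGGGCCCC. The 300 bases held 39 CG dinucleotides in PLAGL1, 25 in MEST, 19 in MEG3 and 6 in H19, against a median of 14 over all promoters. These matches are letters in a window and say nothing of binding or methylation in these cells.

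Levels are given as CPM, counts scaled to a library of 1e6 reads, with library sizes scaled by TMM. Total counts ran from 756942 to 10601172 per sample, lowest in WT NPCs at passage 2 and highest in WT-D28 cells, so that 3 counts, the limit that a count of 0 allows, stood for 3.86 CPM in the shallowest library and 0.297 CPM in the deepest. These limits cover counting error only. The dKO-D28 samples differed from each other more than the samples of any other group did, the chi-square of their counts over genes being 11.3 per degree of freedom against 1.57 to 2.72 elsewhere. KDM6A, the gene for UTX, lay between 43.6 and 60.5 CPM in WT and between 27.3 and 58.5 CPM in dKO samples, and KDM6B, the gene for JMJD3, lay between 115 and 202 CPM in WT and between 144 and 185 CPM in dKO samples. A count over the whole gene does not show the loss of a catalytic domain and therefore checks neither label.

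The levels of marker genes by group were as follows. The summed level of 6 neural progenitor markers was 3225 to 7409 CPM over all samples, with none of the 6 at 0 in any group. These did not move together. At day 28 PAX6 averaged 11.6 CPM in WT-D28 and 269 CPM in dKO-D28 cells, and FABP7 414 and 109 CPM. SOX2, NES, SOX1 and VIM were not called there. At passage 4 FABP7 averaged 1775 CPM in WT and 81.9 CPM in dKO NPCs, SOX2 was also called lower in dKO NPCs, and the others were not called. The 6 neuron markers summed to 3338 to 3342 CPM in WT-D28 cells and to 3953 to 4498 CPM in WT NPCs of passage 4, but 597 to 1253 CPM in the other 4 groups. The summed level of 6 mesenchyme markers was 848 to 1023 CPM in dKO NPCs at passage 2 and 1693 to 1711 CPM in dKO NPCs at passage 4, against 148 to 400 CPM in the other 4 groups. At passage 4 COL1A1, COL1A2 and COL3A1 were called higher in dKO NPCs, while LUM and PDGFRB were not called. DCN, below the filter, averaged 0.934 CPM in dKO and 4.57 CPM in WT NPCs. At day 28 COL1A1, COL1A2 and LUM were called higher and COL3A1 and PDGFRB lower in dKO-D28 cells. LIN28A was the only pluripotency marker with reads, at 31.8 to 79.1 CPM in dKO-D28 cells against at most 0.828 CPM in WT-D28 cells, and POU5F1 and NANOG were at 0 in every group. The 4 astrocyte markers summed to 35.5 to 53.7 CPM in WT NPCs of passage 4 and WT-D28 cells and to at most 15.5 CPM in the other groups. Markers of neural crest summed to 20.5 to 38.6 CPM, of choroid plexus to 1.47 to 22.7 CPM, of endothelium to 0.591 to 88.4 CPM, of skeletal muscle to at most 1.39 CPM and of endoderm and yolk sac to at most 0.740 CPM. At passage 4 endothelium markers summed to 82.6 to 88.4 CPM in dKO and at most 3.795 CPM in WT NPCs, and choroid plexus markers to 21.0 to 22.7 and at most 4.28 CPM. At day 28 endothelium markers summed to at least 14.45 CPM in dKO-D28 and at most 0.793 CPM in WT-D28 cells. Of the endothelium markers only KDR, and of the choroid plexus markers only CLIC6, passed the filter. The part of these markers in the differences between groups described here was not tested. In bulk samples, fewer cells of a type and less RNA per cell cannot be told apart.

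**Figure D1:**
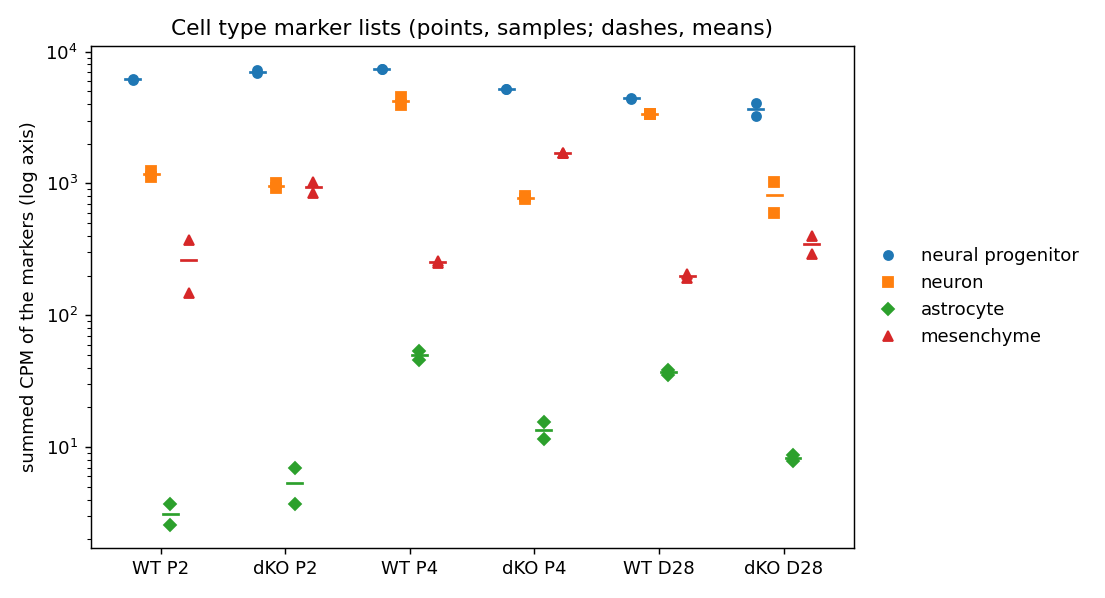
Summed CPM of the markers of 4 cell types (log axis) in each sample, with points for samples and dashes for the mean of the 2 samples of a group. By these sums, WT NPCs at passage 4 and WT-D28 cells stood above the other groups in the neuron list, and dKO NPCs at both passages stood above the others in the mesenchyme list. The members of a list did not all move the same way.

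Calls between groups use edgeR's quasi-likelihood test with the thresholds of the study, which are an unadjusted p below 0.05 together with more than a 2-fold difference. At passage 2, none of the 7 members past the filter was called between dKO and WT NPCs by edgeR, while 4 had an unadjusted p below 0.05 at a smaller fold, and DESeq2 also called 0. Calls of members here and below are a label for values past these thresholds and not a test of genes chosen independently. Over all genes tested, 2.59% were called higher and 1.84% lower. At passage 4, DLK1, IGF2 and PLAGL1 were called higher and NNAT lower in dKO NPCs (11.1% of all genes higher and 11.2% lower). At day 28, DLK1 and IGF2 were called higher and PEG10 and NNAT lower in dKO-D28 than in WT-D28 cells (12.4% higher and 11.7% lower). Since the members were chosen with these comparisons known, nothing is read from their counts beside those shares. Statements that samples of 2 groups do or do not overlap are likewise a description. The share of all genes without overlap in a single comparison was not counted.

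In the course of WT differentiation from passage 2 NPCs to day 28, PEG10 and NNAT were called higher and DLK1, IGF2 and GRB10 lower, where 12.9% of all genes were called higher and 11.5% lower. In the same course of the dKO cells only IGF2 of the 7 members was called, higher, where 4.01% of all genes were called higher and 3.14% lower. Between passage 2 and passage 4, NNAT was called higher and DLK1, IGF2 and GRB10 lower in WT NPCs (10.3% and 9.49% of all genes), and PLAGL1 was called higher and DLK1, NNAT and GRB10 lower in dKO NPCs (4.61% and 5.22%). The genotype difference itself changed from passage 2 to day 28 for 5 members, upwards for DLK1 and IGF2 and downwards for PEG10, MEST and NNAT, and did so in either direction for 23.2% of all genes. Up to passage 4 it changed for DLK1, IGF2 and PLAGL1 upwards and for NNAT downwards, and for 19.3% of all genes. Over all genes, 20.2% to day 28 and 15.3% to passage 4 passed an adjusted p of 0.05 together with the fold threshold. The members were chosen with these values known, so no adjusted p is read for them. NNAT and MEST to day 28, and NNAT and PLAGL1 to passage 4, had dKO samples wholly on opposite sides of the WT samples at the 2 stages, as had 16.3% and 13.9% of all genes. These comparisons share samples, above all the WT NPCs at passage 2, and are therefore not independent of each other.

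**Figure D2:**
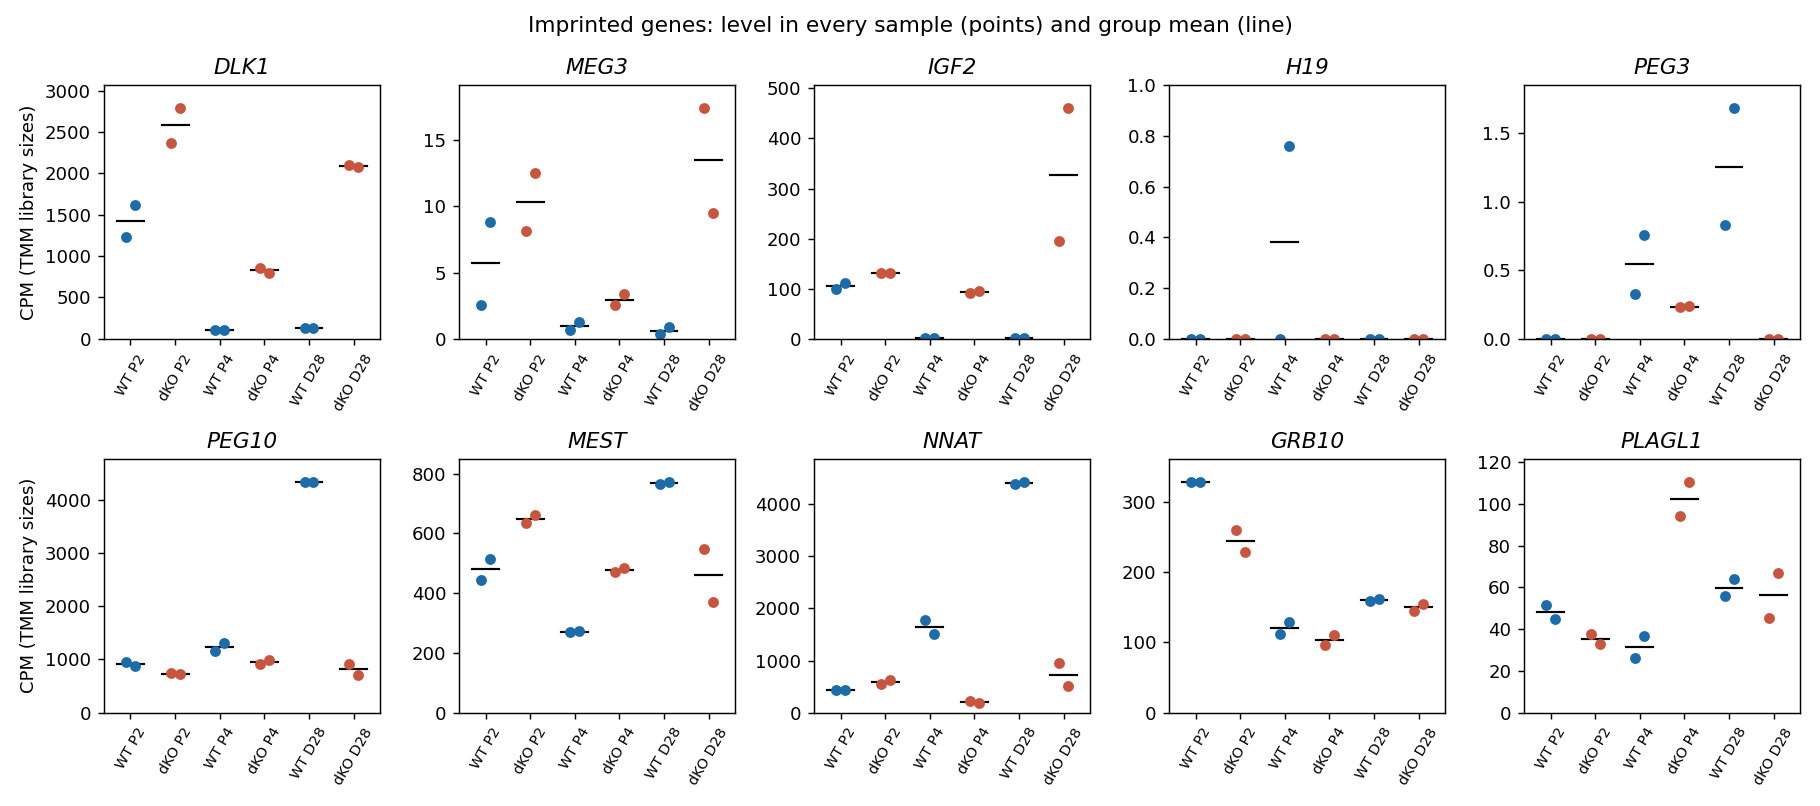
Level of each of the 10 imprinted genes in CPM (linear axes from 0, 1 scale per gene) in WT (blue) and dKO (red) cells, where P2 and P4 stand for the passage of NPCs and D28 for day 28, with points for samples and lines for group means. DLK1 and IGF2 were low in WT NPCs of passage 4 and WT-D28 cells, where NNAT was highest, and PEG10 stood out in WT-D28 cells alone.

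DLK1 (ENSG00000185559, chr14:100725705-100738224, plus strand of hg38) encodes a transmembrane protein with EGF-like repeats that is known to restrain differentiation. DLK1 stood at 1228 and 1618 CPM in WT NPCs and at 2368 and 2790 CPM in dKO NPCs at passage 2. At passage 4 it stood at 110 and 107 CPM in WT NPCs and at 860 and 799 CPM in dKO NPCs. At day 28 it stood at 132 and 137 CPM in WT-D28 cells and at 2100 and 2076 CPM in dKO-D28 cells. The order from high to low was dKO NPCs at passage 2, dKO-D28 cells, WT NPCs at passage 2, dKO NPCs at passage 4, WT-D28 cells and WT NPCs at passage 4. The mean of the highest group was 23.9 times that of the lowest.

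The genotype difference of DLK1 was 0.85 ± 0.12 (log2 fold change, dKO over WT, ± SE, n = 2 per group) at passage 2, 2.94 ± 0.13 at passage 4 and 3.96 ± 0.14 at day 28, the last of which is 15.5-fold. In WT cells DLK1 fell by 3.41 ± 0.13 on the log2 scale from passage 2 to day 28 and fell by 3.72 ± 0.14 from passage 2 to passage 4. In dKO cells the change to day 28 was -0.30 ± 0.12 and the change to passage 4 was -1.64 ± 0.12. With offsets for GC content and gene length, a kind of correction that the study also applied, the passage 2 difference was 0.19 and the change of dKO NPCs to passage 4 was -0.50, below the fold threshold, while the differences at passage 4 and day 28 were 3.01 and 3.53. Without WT NPC passage 2 replicate 2, the passage 2 difference was 1.07 and past the threshold.

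MEG3 (ENSG00000214548, chr14:100779410-100861031, plus strand), the maternal non-coding RNA of the same cluster, was sparse, with 2 to 73 counts per sample. MEG3 was 2.57 and 8.81 CPM at passage 2 in WT NPCs, 0.658 and 1.27 CPM at passage 4, and WT-D28 cells had 0.355 and 0.892 CPM. In dKO NPCs it was 8.14 and 12.5 CPM at passage 2, 2.54 and 3.38 CPM at passage 4, and in dKO-D28 cells 17.4 and 9.51 CPM. The WT and dKO samples overlapped at passage 2 and did not overlap at passage 4 or at day 28. In a fit that kept every gene with at least 1 count in any sample, the genotype difference of MEG3 was 0.71 ± 0.52, 1.51 ± 0.61 and 4.25 ± 0.43 (log2) at passage 2, passage 4 and day 28. The WT-D28 level rests on 3 and 9 counts, so the size of the last value is uncertain beyond its SE.

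DIO3, the deiodinase that inactivates thyroid hormone, and its antisense transcript DIO3OS lie at the far end of the DLK1 cluster. They belong to a longer list of imprinted genes that was also chosen with earlier results of these data known. Among samples at passage 4, DIO3 stood at 1.65 and 3.04 CPM in WT NPCs and at 13.6 and 12.3 CPM in dKO NPCs. That difference was 2.41 ± 0.32 on the log2 scale (edgeR, Benjamini-Hochberg adjusted p = 1.4e-05). At day 28 the difference of DIO3 was 1.15 ± 0.20 (edgeR adjusted p = 0.00016), and at passage 2 it was 0.67 ± 0.27 (edgeR adjusted p = 0.24) and not called. DIO3OS was higher in dKO NPCs at passage 4 by 3.73 ± 0.44 (edgeR adjusted p = 3.9e-06), and its day 28 difference of 0.74 ± 0.24 lay below the fold threshold. At passage 2 DIO3OS averaged 24.8 CPM in dKO and 32.7 CPM in WT NPCs, without overlap and not called, a difference of -0.38 ± 0.28 (edgeR adjusted p = 0.59). Both DIO3 and DIO3OS fell in WT cells from passage 2 to passage 4, with log2 changes of -3.21 ± 0.36 (edgeR adjusted p = 4.2e-06) and -5.42 ± 0.42 (edgeR adjusted p = 9.8e-08). In dKO NPCs the fall to passage 4 was smaller for both, at -1.46 ± 0.24 and -1.32 ± 0.27, and the difference between genotypes in that change passed the test (edgeR adjusted p = 0.0087 and 5.5e-05). Strand use in counting is not stated, so reads of DIO3 and DIO3OS cannot be told apart where the genes overlap.

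The gene RTL1, a retrotransposon-derived gene between DLK1 and DIO3 named here after its values were seen, did not pass the filter, with 184 counts in all. At passage 2 RTL1 stood at 9.003 and 7.34 CPM in WT NPCs against 12.6 and 16.0 CPM in dKO NPCs. At passage 4 RTL1 stood at 0.658 and 0.253 CPM in WT NPCs against 2.31 and 3.38 CPM in dKO NPCs. At day 28 it stood at 1.89 and 2.58 CPM in WT-D28 and 5.25 and 6.85 CPM in dKO-D28 cells. RTL1 was thus higher in dKO than in WT samples at all 3 stages, a description of values that was not tested. Of the non-coding RNAs MEG8 and MEG9, the first had 2 counts over all samples and the second 24. In a window of 500 kb on either side of DLK1, chosen after the data were seen, lay 8 other genes past the filter. Between dKO-D28 and WT-D28 cells edgeR called 0 of these, with 2 at an unadjusted p below 0.05, and DESeq2 called 0, where edgeR called 12.4% of all genes higher and 11.7% lower. Between genotypes at passage 4 both tools called 1, where edgeR called 11.1% of all genes higher and 11.2% lower.

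**Figure D3:**
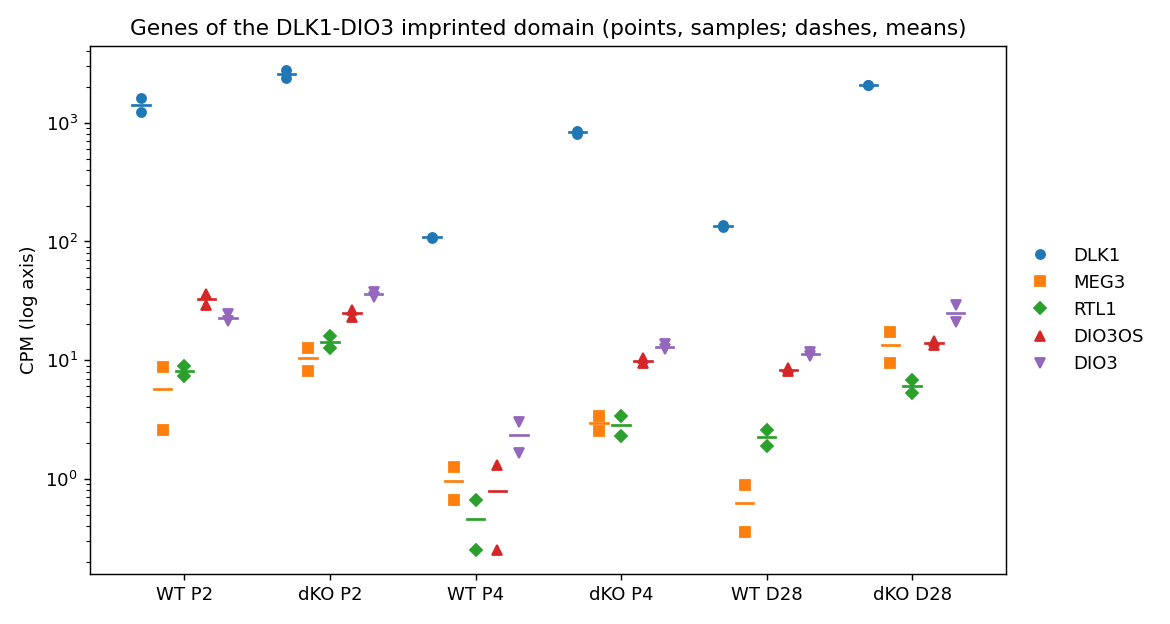
CPM (log axis) of 5 genes of the DLK1-DIO3 imprinted domain in each sample, with points for samples and dashes for the mean of the 2 samples of a group. In WT NPCs at passage 4 the 5 genes were at or near their lowest level, and at day 28 each dKO sample lay above both WT samples.

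IGF2 (ENSG00000167244, chr11:2129112-2158391, minus strand) encodes a fetal growth factor. It stood at 100 and 112 CPM in WT NPCs against 132 and 131 CPM in dKO NPCs at passage 2. At passage 4 it was 0.987 and 2.28 CPM in WT NPCs, on 3 and 9 counts, and 90.9 and 95.0 CPM in dKO NPCs. At day 28 it was 2.48 and 2.28 CPM in WT-D28 and 194 and 461 CPM in dKO-D28 cells. IGF2 was thus lowest in the WT cells of both later stages, with 21 and 23 counts in the WT-D28 libraries. Of neighbouring groups in the order of levels none overlapped, but these 2 WT groups all but touched. The lower WT-D28 sample was at 2.28 CPM on 23 counts, and the higher WT sample of passage 4 at 2.277 CPM on 9 counts. Counts this small do not tell these 2 groups apart. The genotype difference was 0.30 ± 0.43 on the log2 scale at passage 2, 5.74 ± 0.66 at passage 4 and 7.09 ± 0.50 at day 28. The WT level at passage 4 rests on few counts, and without WT NPC passage 4 replicate 2 the difference at that passage was 6.51.

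The 2 dKO-D28 samples differed in IGF2 by more CPM than the samples of any other group. Leaving out either dKO-D28 sample gave a day 28 genotype difference of 6.34 or 7.59. IGF2 rose by 1.32 ± 0.37 (log2) in dKO cells from passage 2 to day 28, and without dKO-D28 replicate 2 that change was 0.56 and no longer past the fold threshold. In WT cells IGF2 fell by 5.48 ± 0.56 to day 28 and fell by 5.94 ± 0.71 to passage 4. The latter change was -6.72 without WT NPC passage 4 replicate 2 and -5.54 without replicate 1 of that group. Annotated exons of IGF2 share 20.4% of their bases with the readthrough gene INS-IGF2, which had 3 counts over all samples, and 37.9% with another overlapping model that was not counted, so some reads of the locus may have been left out as ambiguous.

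H19 (ENSG00000130600, chr11:1995166-2004552, minus strand), the non-coding partner of IGF2, was at 0 counts in 11 of 12 samples. The remaining sample, WT NPC passage 4 replicate 2, had 3 counts, 0.759 CPM. A count of 0 allows up to 0.297 CPM in the deepest library and up to 3.86 CPM in the shallowest, and dKO-D28 cells, where IGF2 was highest, allow up to 0.570 and 0.716 CPM of H19. KCNQ1OT1, the non-coding RNA of the adjoining imprinted cluster, was not called in any comparison, and its difference between dKO-D28 and WT-D28 cells was -0.93 ± 0.23 (log2, edgeR adjusted p = 0.0025, below the fold threshold). Of the 7 other genes past the filter within 500 kb of IGF2, the dopamine synthesis enzyme gene TH was the 1 called between dKO-D28 and WT-D28 cells, lower at -2.32 ± 0.33, and 2 were called higher in dKO NPCs at passage 4. The shares of all genes called were 11.7% lower at day 28 and 11.1% higher at passage 4.

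Of a list of 18 genes of the IGF pathway, 15 passed the filter. At day 28, 4 were called higher and 1 lower in dKO-D28 cells, and at passage 4, 6 were called higher and 2 lower in dKO NPCs, while at passage 2 the only call was PAPPA2, higher. Of all genes, 12.4% were called higher and 11.7% lower at day 28, 11.1% and 11.2% at passage 4, and 2.59% and 1.84% at passage 2. Without dKO-D28 replicate 1 the day 28 calls numbered 8 in place of 5, and without WT NPC passage 2 replicate 2 the passage 2 calls numbered 3 in place of 1. The median log2 fold change of the 15 between dKO and WT was 0.419 at passage 2, 0.917 at passage 4 and 0.755 at day 28, against medians of all genes of 0.00351, 0.0204 and 0.0026. IGF1, the other ligand, had at most 3 counts in any sample. The receptor genes were detected throughout: IGF1R, the signalling receptor, differed between dKO and WT by 0.20 ± 0.13 (log2) at passage 2, 1.02 ± 0.12 at passage 4 (edgeR adjusted p = 2.7e-06) and 0.97 ± 0.11 at day 28 (edgeR adjusted p = 2.2e-06, just below the fold threshold). IGF2R, the receptor that clears IGF2, differed by 0.13 ± 0.12, 0.97 ± 0.11 and 0.75 ± 0.11 at these stages and was not called. INSR, the insulin receptor, differed by -0.25 ± 0.19, -0.37 ± 0.15 and 0.16 ± 0.14 and was not called.

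PAPPA and PAPPA2, proteases that release IGF from its binding proteins, were both higher in dKO cells at passage 4 and at day 28. PAPPA was at 1.98 and 3.29 CPM in WT NPCs against 74.5 and 77.1 CPM in dKO NPCs at passage 4, a difference of 4.79 ± 0.26 (log2, edgeR adjusted p = 7.1e-10), and its day 28 difference was 3.42 ± 0.22 (edgeR adjusted p = 3.7e-09). PAPPA2 was higher in dKO cells at passage 2 by 2.35 ± 0.38 (edgeR adjusted p = 0.0033), at passage 4 by 1.73 ± 0.39 (edgeR adjusted p = 0.0017) and at day 28 by 2.42 ± 0.45 (edgeR adjusted p = 0.00024). Of the binding proteins, IGFBP3 was higher in dKO cells by 3.83 ± 0.34 at passage 4 (edgeR adjusted p = 3.8e-07) and by 2.42 ± 0.24 at day 28 (edgeR adjusted p = 8.3e-07). IGFBP7 was lower in dKO-D28 than in WT-D28 cells, at -1.38 ± 0.18 (edgeR adjusted p = 8e-06). IGFBPL1 was lower in dKO NPCs at passage 4, at -2.53 ± 0.13 (edgeR adjusted p = 3.9e-10), as was the adaptor gene GRB14, at -3.70 ± 0.37 (edgeR adjusted p = 5.1e-07). GRB14, with 305 counts in all, passed the filter mainly through WT NPCs at passage 4, so its p-value is not independent of the filter.

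NNAT (ENSG00000053438, chr20:37521206-37523690, plus strand), neuronatin, is a paternally expressed gene of the developing brain. It stood at 432 and 429 CPM in WT NPCs against 559 and 618 CPM in dKO NPCs at passage 2. At passage 4 it stood at 1783 and 1502 CPM in WT NPCs against 230 and 191 CPM in dKO NPCs, and at day 28 at 4388 and 4433 CPM in WT-D28 and 946 and 503 CPM in dKO-D28 cells. WT-D28 cells were highest and dKO NPCs at passage 4 lowest, and dKO-D28 cells overlapped dKO NPCs at passage 2. Per length of annotated exon, NNAT in WT-D28 cells reached 3318 CPM per kb, against 648 for PEG10 and 25.6 for DLK1 in the same cells.

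The genotype difference of NNAT was 0.45 ± 0.26 (log2) at passage 2, -2.96 ± 0.26 at passage 4 and -2.61 ± 0.26 at day 28, so that its sign turned between passage 2 and the later stages. With the GC content and gene length offsets, the passage 4 difference was -1.53 and the day 28 difference -1.41, both still past the fold threshold. The changes between the passages, 1.93 ± 0.26 in WT and -1.48 ± 0.26 in dKO NPCs, became 0.95 and -0.86 and lost their calls. NNAT rose by 3.36 ± 0.27 in WT cells over the course to day 28, or 1.69 with those offsets, and changed by 0.30 ± 0.25 in dKO cells, a value that ran from -0.23 to 0.68 as each dKO sample was left out. The neuron marker sum was 3338 to 3342 CPM in WT-D28 and 597 to 1029 CPM in dKO-D28 cells, in the same order as NNAT. In WT NPCs at passage 4 the sum was higher than in WT-D28 cells, at 3953 to 4498 CPM, while NNAT was lower. The part of these markers in the difference was not tested.

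BLCAP, the gene in whose intron NNAT lies on the opposite strand and which is imprinted in brain, was 837 and 785 CPM in WT-D28 and 184 and 142 CPM in dKO-D28 cells. BLCAP was lower in dKO cells, at -2.32 ± 0.15 (log2) at day 28 (edgeR adjusted p = 9.8e-09) and -1.59 ± 0.16 at passage 4 (edgeR adjusted p = 9.4e-07). At passage 2 the difference of BLCAP was 0.27 ± 0.19 (edgeR adjusted p = 0.55). The exons of both genes overlap over 6.4% of the exon bases of NNAT, so a small part of either count could belong to the other.

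PEG10 (ENSG00000242265, chr7:94656325-94669695, plus strand), a gene derived from a retrotransposon that is needed in the placenta, was within 707 to 1306 CPM in 5 of 6 groups. WT-D28 cells stood apart at 4333 and 4334 CPM, against 917 and 707 CPM in dKO-D28 cells. The genotype difference of PEG10 was -0.32 ± 0.12 (log2) at passage 2, -0.37 ± 0.12 at passage 4 and -2.42 ± 0.12 at day 28. PEG10 rose by 2.25 ± 0.12 in WT cells from passage 2 to day 28 and changed by 0.15 ± 0.12 in dKO cells. With the GC content and gene length offsets, the day 28 difference was -1.27 and the WT rise 1.01, both past the fold threshold, while the change of the genotype difference from passage 2 to day 28 went from -2.10 to -0.95 and was no longer called. PEG10 shares 3.3% of its exon bases with SGCE on the opposite strand.

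Imprinted genes next to PEG10 were tested on their own. SGCE, whose promoter lies head to head with that of PEG10, differed by -0.56 ± 0.16 (log2) at day 28 (edgeR adjusted p = 0.0068, below the fold threshold), and PPP1R9A, a neuronal actin-binding protein gene, by 0.20 ± 0.14. TFPI2, a protease inhibitor gene in the same cluster, was higher in dKO NPCs at passage 4 by 3.69 ± 0.66 (edgeR adjusted p = 0.0019), with 2.30 and 3.04 CPM in WT NPCs against 36.2 and 34.6 CPM in dKO samples. At passage 2 the call of TFPI2 (1.91 ± 0.53, edgeR adjusted p = 0.12) rested on WT samples of 7.72 and 42.6 CPM.

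MEST (ENSG00000106484, chr7:130486171-130506465, plus strand) encodes a hydrolase-like protein of mesodermal and neural tissue. It was 445 and 513 CPM in WT NPCs against 635 and 663 CPM in dKO NPCs at passage 2, 269 and 272 CPM in WT NPCs against 471 and 483 CPM in dKO NPCs at passage 4, and 766 and 773 CPM in WT-D28 and 548 and 371 CPM in dKO-D28 cells. dKO samples were thus higher at both passages and lower at day 28. The differences were 0.43 ± 0.15, 0.82 ± 0.14 and -0.74 ± 0.14 (log2) at passage 2, passage 4 and day 28, none past the fold threshold. Without dKO-D28 replicate 1 the day 28 difference was -1.04 and past it, and without dKO-D28 replicate 2 the change of the genotype difference from passage 2 to day 28 went from -1.18 to -0.92 and lost its call. Exons of MEST share 12.6% and 10.2% of their bases with 2 antisense transcripts, whose reads cannot be told apart from those of MEST. COPG2, the coat protein gene next to MEST, differed by -0.71 ± 0.10 at day 28 (edgeR adjusted p = 2.1e-05, below the fold threshold).

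GRB10 (ENSG00000106070, chr7:50590063-50793462, minus strand), an adaptor that damps insulin and IGF receptor signalling, was called between stages but not between genotypes. It was highest in WT NPCs at passage 2, with 328 CPM in both samples, and 260 and 229 CPM in dKO NPCs at that passage. At passage 4 it was 111 and 129 CPM in WT NPCs against 95.5 and 110 CPM in dKO NPCs, and at day 28 158 and 162 CPM in WT-D28 and 144 and 155 CPM in dKO-D28 cells. The genotype difference was -0.43 ± 0.12, -0.23 ± 0.12 and -0.10 ± 0.11 (log2) at the 3 stages. GRB10 fell by 1.45 ± 0.12 in WT and by 1.25 ± 0.12 in dKO NPCs from passage 2 to passage 4. To day 28 its change in WT cells was -1.04 ± 0.12, just past the fold threshold, and the call was lost at -0.93 with a filter of 1 count in any sample and at -0.97 with 10 counts in every sample. DDC, the neighbouring gene for the enzyme that makes dopamine and serotonin, was 11.5 and 13.9 CPM in WT-D28 and 1.67 and 0.190 CPM in dKO-D28 cells, a difference of -3.84 ± 0.48 (edgeR adjusted p = 4.4e-06).

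PLAGL1 (ENSG00000118495, chr6:143940300-144064599, minus strand), a zinc finger transcription factor known to control other imprinted genes, had its highest level in dKO NPCs at passage 4. It was 51.5 and 44.8 CPM in WT NPCs against 37.7 and 32.7 CPM in dKO NPCs at passage 2. At passage 4 it was 26.3 and 36.7 CPM in WT NPCs against 94.4 and 111 CPM in dKO NPCs, and at day 28 55.7 and 64.0 CPM in WT-D28 and 45.6 and 67.1 CPM in dKO-D28 cells. The difference was -0.43 ± 0.27 at passage 2, 1.69 ± 0.19 at passage 4 and -0.08 ± 0.17 at day 28 (log2), where the samples overlapped. PLAGL1 shares 4.5% of its exon bases with the non-coding RNA HYMAI, which had 39 counts over all samples. PLAGL1 rose by 1.54 ± 0.22 in dKO NPCs from passage 2 to passage 4, while the change in WT NPCs was -0.58 ± 0.24. In the same dKO NPCs at passage 4 the mesenchyme marker sum was at its highest, at 1693 to 1711 CPM. The next highest sum was in dKO NPCs at passage 2, at 848 to 1023 CPM. PLAGL1 averaged 35.2 CPM there, against 48.1 CPM in WT NPCs of that passage. The part of these markers in the level of PLAGL1 was not tested.

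PEG3 (ENSG00000198300, chr19:56810077-56840728, minus strand), a large zinc finger gene of the paternal genome, had few reads. PEG3 had 7 and 17 counts in WT-D28 cells. At passage 4 the WT NPCs had 1 and 3 counts and the dKO NPCs 1 each. The remaining 6 samples, passage 2 NPCs of both genotypes and dKO-D28 cells, had 0 counts, which allows up to 0.570 CPM in the deepest of these libraries. The WT-D28 level was 0.828 and 1.69 CPM. The mean of WT-D28 cells was 1.95 times the mean limit of 3 counts per dKO-D28 library. That value does not allow for counting error in WT-D28 cells, so it is not a lower bound. The lower WT-D28 sample, at 0.828 CPM, lay near the limit of 0.716 CPM in dKO-D28 replicate 1. Exons of PEG3 share 12.9% of their bases with ZIM2, which had 2 counts over all samples, and 39.1% with a non-coding gene on the opposite strand, which was not analysed here.

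**Figure D4:**
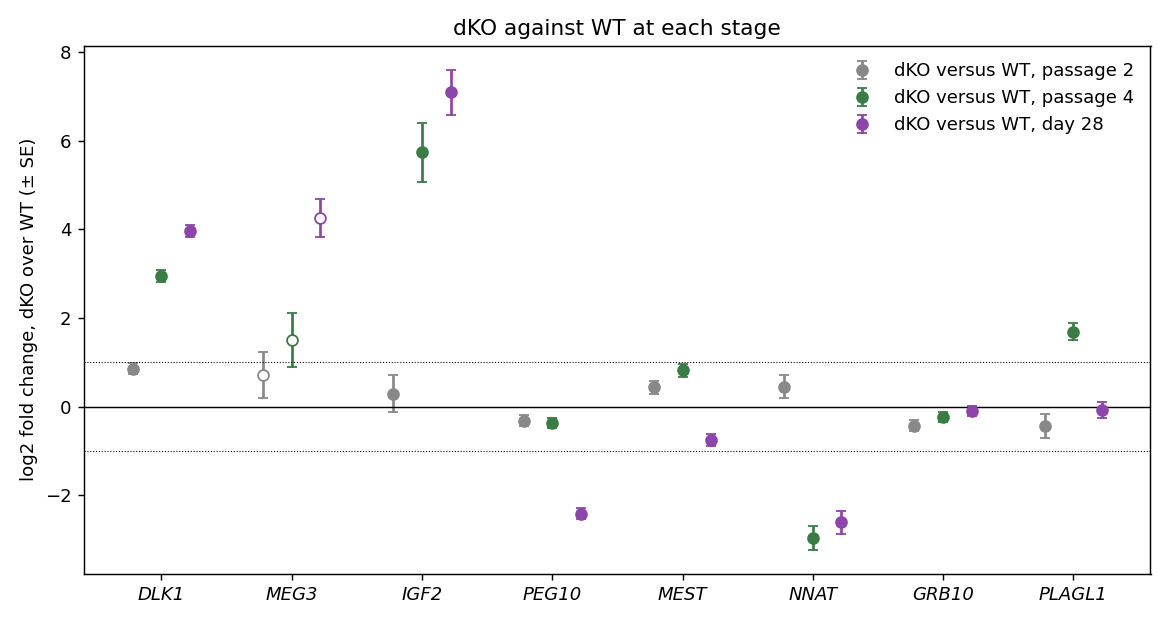
Log2 fold change of dKO over WT (vertical axis, points with bars of ± 1 SE) at passage 2, passage 4 and day 28 for the 7 genes past the count filter and, with open points from the fit without that filter, MEG3; dotted lines mark a fold of 2. DLK1 reached 3.96 and IGF2 7.09 at day 28, where PEG10 and NNAT lay at -2.42 and -2.61.

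Genes whose group means were most like those of DLK1, MEG3 and IGF2 were sought among 13447 genes by the root mean square difference of centred log2 CPM over the 6 group means. For DLK1 they were EFEMP1 (0.34), SDC4 (0.43) and BCAT1 (0.44), against a median of 1.85 over all genes. For MEG3 they were EYA2 (0.28), FEZF1 (0.37) and SYT10 (0.39), against a median of 1.40. For IGF2 they were SFRP2 (0.59), CLDN1 (0.69) and LIN28A (0.73), against a median of 2.84. LIN28A had WT means of 84.6, 0.747 and 0.711 CPM at passage 2, passage 4 and day 28, and dKO means of 82.3, 32.1 and 55.4 CPM. These values are a description over 6 means of 2 libraries each.

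A further list of 57 imprinted genes held none of the 10 genes. Of these 55 were in the files and 27 passed the filter, so 28 had too few counts to be compared. At passage 2, TFPI2 and ATP10A were called higher in dKO NPCs and 0 lower by edgeR (2.59% and 1.84% of all genes), where 3 of the 27 had an unadjusted p below 0.05 in either direction and DESeq2 called 2. Neither call held after adjustment over all genes, and 1 of the 2 was left without WT NPC passage 2 replicate 1 or without dKO NPC passage 2 replicate 2. At passage 4, 4 were called higher (DIO3, DIO3OS, TFPI2 and LRRTM1) and 3 lower (BLCAP, DDC and NAP1L5) in dKO NPCs, where 11.1% of all genes were called higher and 11.2% lower, so that the count lies close to the background. LRRTM1 (edgeR adjusted p = 0.055) and DDC (edgeR adjusted p = 0.068) did not hold after adjustment over all genes, which left 5 of the 7, and DESeq2 called 5. At day 28, 1 was called higher (DIO3) and 10 lower in dKO-D28 cells, against 12.4% and 11.7% of all genes. The 10 include DDC, ATP10A and LRRTM1, which passed the filter mainly through WT-D28 cells, so their calls are not independent of the filter. The median log2 fold change of the 27 was -0.000431 at passage 2, -0.0612 at passage 4 and -0.556 at day 28, where the median of all genes was 0.00351, 0.0204 and 0.0026.

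The genes lower in dKO-D28 cells included MAGEL2 and NDN, paternally expressed genes of the Prader-Willi region on chromosome 15. MAGEL2 stood at 247 and 240 CPM in WT-D28 and at 40.4 and 17.1 CPM in dKO-D28 cells, a difference of -3.11 ± 0.32 (log2, edgeR adjusted p = 3.2e-05). NDN stood at 351 and 347 CPM in WT-D28 and at 117 and 73.6 CPM in dKO-D28 cells, a difference of -1.88 ± 0.17 (edgeR adjusted p = 2.5e-07). UBE3A, the maternally expressed ubiquitin ligase of that region in neurons, differed by -0.45 ± 0.11 and SNHG14, the host of its antisense transcript, by -0.27 ± 0.13, neither past the fold threshold. LRRTM1, a synaptic adhesion gene, was lower in dKO-D28 cells at -2.38 ± 0.32 (edgeR adjusted p = 1.2e-05). With 289 counts in all, LRRTM1 passed the filter mainly through WT-D28 cells, so that p-value is not independent of the filter. NAP1L5 was lower in dKO cells at passage 4, at -2.33 ± 0.26 (edgeR adjusted p = 2.2e-06), and at day 28, at -2.20 ± 0.23 (edgeR adjusted p = 5.3e-07).

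From passage 2 to day 28 in WT cells, 8 of the 27 were called higher and 2 lower, against 12.9% and 11.5% of all genes. ATP10A, a phospholipid transporter gene, rose by 3.87 ± 0.60 (log2, edgeR adjusted p = 7.2e-05) from a level of 0 and 2.20 CPM, so that its size depends on the prior count, and BLCAP and DDC rose by 2.78 ± 0.17 and 2.74 ± 0.64 (edgeR adjusted p = 1.3e-08 and 0.0024). ATP10A and DDC passed the filter mainly through WT-D28 cells, the deepest libraries, so their p-values are not independent of the filter. DIO3 and DIO3OS were the 2 called lower. In dKO cells over the same course 0 were called higher by edgeR and 2 lower, TFPI2 and LRRTM1, where 7 of the 27 had an unadjusted p below 0.05 in either direction and DESeq2 called 2. Of all genes, 4.01% were called higher and 3.14% lower in that course. Between the passages, 3 were called higher and 5 lower in WT NPCs (10.3% and 9.49% of all genes), and 0 higher and 5 lower in dKO NPCs (4.61% and 5.22%). In dKO NPCs 3 of the 5 held after adjustment over all genes. Of the 27 in dKO NPCs, 10 had an unadjusted p below 0.05 in either direction and DESeq2 called 4, and without dKO NPC passage 4 replicate 1 edgeR called 3 in place of 5.

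**Figure D5:**
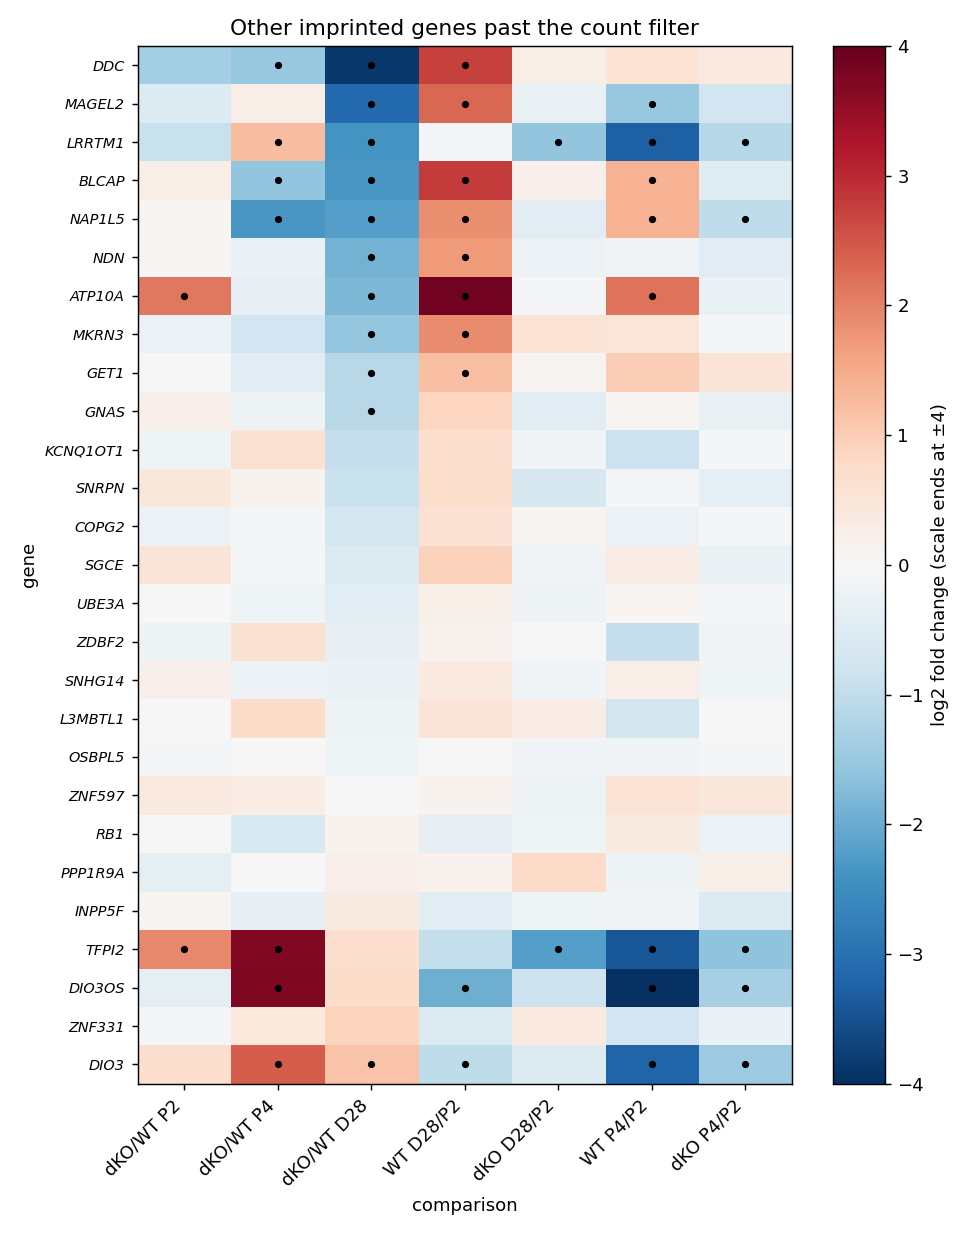
Log2 fold change (colour, scale from -4 to 4) of the 27 further imprinted genes past the count filter (rows, ordered by the day 28 genotype difference) in 7 comparisons (columns), with dots on genes past both thresholds. In dKO-D28 against WT-D28 cells 10 genes were called lower and 1, DIO3, higher, and in WT cells from passage 2 to day 28 there were 8 calls higher and 2 lower.

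Of 4 genes known to keep imprints in place, 3 passed the filter, and none of these was called in any comparison. ZFP57, the zinc finger factor whose core is marked in the promoters above, had 0 counts in all 12 samples. ZNF445, a zinc finger protein of like function, TRIM28, the cofactor of both, and CTCF passed the filter. At passage 2 none of the 3 had an unadjusted p below 0.05 by edgeR and DESeq2 called 0 of them. At passage 4 and day 28, 2 of the 3 had an unadjusted p below 0.05 by edgeR, and 0 were called by DESeq2. Of all genes, edgeR called 2.59% higher and 1.84% lower at passage 2, 11.1% and 11.2% at passage 4, and 12.4% and 11.7% at day 28. The share of all genes at an unadjusted p below 0.05 with any fold is not given here. With only 3 genes, nothing is read from these counts. TRIM28 differed between dKO and WT by 0.00 ± 0.13 (log2) at passage 2, 0.68 ± 0.12 at passage 4 (edgeR adjusted p = 0.00026) and 0.63 ± 0.12 at day 28 (edgeR adjusted p = 0.00036), below the fold threshold. CTCF differed by -0.24 ± 0.12 at passage 4 and 0.27 ± 0.11 at day 28, and ZNF445 by -0.50 ± 0.12 and 0.02 ± 0.12.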

How the data were processed

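RNA was extracted with TRIzol and libraries were made with the TruSeq kit. The authors aligned reads to hg38 with HISAT2 2.0.4, sorted them with SAMtools 1.3.1 and deposited raw counts per Ensembl gene from HTSeq 0.6.0, unfiltered and not normalized; the annotation release and the strand setting are not given in the sources used here, and DESeq 1.18.1 of the submitters' notes was not used here. Groups come from the labels, except that passage 2 comes from the study's text. Of the 58302 genes, 57532 (98.7%, with 99.8% of counts) matched GENCODE v44, which gave symbols, positions, lengths and GC content.

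Genes averaging 20 counts or more (13454) were fitted in 1 model of 6 group means with TMM scaling and edgeR 4.0.16 in R 4.3.3 (robust quasi-likelihood), which was tested on simulated data. Adjusted p-values are Benjamini-Hochberg values over all genes tested. The SE is the log2 fold change divided by the root of the F statistic, and log2 fold changes of sparse genes depend on the prior count. DESeq2 1.42.0, other filters, GC content and length offsets, a replicate block and fits without each sample were alternatives. Replicate numbers of different groups deviated together little (mean correlation 0.0177, from -0.0555 to 0.182 over 15 pairs), so they were not taken as pairs. Batch and group cannot be told apart, since no label names a batch.

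The 10 genes, the gene lists and the markers were chosen with earlier results of these data known. Named genes were the 10 genes, every listed gene of their loci past the filter, up to 3 called genes per list, direction and comparison with the largest fold, the 3 IGF pathway receptors, all imprint maintenance genes, and the 3 genes most like DLK1, MEG3 and IGF2 (prior count 2). H19 was left out of the search for like genes because 1 library held all its reads.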

Additional observations from a re-analysis of the deposited data

Results flagged for a closer look

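Of the 27 further imprinted genes past the filter, 10 had a genotype difference at day 28 and 5 at passage 4 that differed from the one at passage 2, as did 20.2% and 15.3% of all genes tested. Values are given as log2 values of the later difference minus the earlier one, tested as a contrast in edgeR with Benjamini-Hochberg adjustment. The list was chosen with earlier results of these data known, and all of these contrasts share the 4 passage 2 samples. From passage 2 to day 28 the value was 1.12 for DIO3OS (edgeR adjusted p = 0.0304). It was negative for 9 further genes. These were ATP10A at -3.91 (edgeR adjusted p = 0.0023), BLCAP at -2.59 (edgeR adjusted p = 1.87e-06), MAGEL2 at -2.57 (edgeR adjusted p = 0.00838), NAP1L5 at -2.29 (edgeR adjusted p = 0.00136) and NDN at -1.92 (edgeR adjusted p = 7.88e-05). The remaining 4 were SNRPN at -1.35 (edgeR adjusted p = 0.00384), GNAS at -1.29 (edgeR adjusted p = 2.44e-06), GET1 at -1.11 (edgeR adjusted p = 0.0175) and SGCE at -1.07 (edgeR adjusted p = 0.0104). DIO3OS, SNRPN and SGCE did not pass the fold threshold at either stage on their own. ATP10A passed the count filter mainly through WT-D28 cells.

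Between passage 2 and passage 4 the value was 4.10 for DIO3OS (edgeR adjusted p = 5.46e-05), 2.12 for LRRTM1 (edgeR adjusted p = 0.0307) and 1.74 for DIO3 (edgeR adjusted p = 0.00873). It was -2.41 for NAP1L5 (edgeR adjusted p = 0.00179) and -1.86 for BLCAP (edgeR adjusted p = 6.86e-05).

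Of the 10 imprinted genes, some turned direction between stages with every dKO sample on 1 side of the WT samples at passage 2 and on the other side later, as did 16.3% of all genes tested from passage 2 to day 28 and 13.9% to passage 4. By day 28 these were NNAT, with a change of -3.06, or -1.69 with GC content and length offsets, and MEST, with a change of -1.18, which lost its call at -0.92 without dKO-D28 replicate 2. By passage 4 these were NNAT, with a change of -3.41, or -1.81 with those offsets, and PLAGL1, with a change of 2.12. None of the differences of these 3 genes at passage 2 was called on its own. The genes were chosen with these values known, so the values are a description and no p is given.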

How the results depend on the processing

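Counts of calls among the 27 further imprinted genes and the 15 IGF pathway genes depended mainly on the filter, which changes how many genes are tested. For the other filters, the number of listed genes tested and the share of all genes called are not given here. The counts under those filters therefore do not show a gain or loss of differences. A filter of 1 count or more in any sample gave, for the imprinted list, 16 calls in place of 7 between genotypes at passage 4, 21 in place of 11 at day 28, 17 in place of 10 in WT and 7 in place of 2 in dKO cells from passage 2 to day 28, 15 in place of 8 in WT and 11 in place of 5 in dKO NPCs from passage 2 to passage 4, and 12 in place of 6 for the change of the genotype difference to passage 4. Asking for at least 10 counts in every sample gave 1, 6, 5, 0, 3, 0 and 1 in the same order, and 0 in place of 2 at passage 2. For the IGF pathway that filter gave 0 in place of 1, 3 in place of 8 and 3 in place of 5 between genotypes at passage 2, passage 4 and day 28, and 2 in place of 6 and 0 in place of 4 in WT and dKO cells to day 28. An adjusted p below 0.05 left 0 of 2 imprinted genes at passage 2 and 3 of 5 in dKO NPCs to passage 4, and a fit of the compared samples alone left 1 of 2 at passage 2.

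Leaving out each sample in turn gave, for the imprinted list, 1 to 2 calls at passage 2, 5 to 7 at passage 4, 10 to 14 at day 28, 9 to 11 in WT and 2 in dKO cells to day 28, 8 to 9 in WT and 3 to 5 in dKO NPCs to passage 4, and 9 to 15 and 5 to 6 for the changes of the genotype difference. For the IGF pathway it gave 1 to 3, 7 to 8 and 5 to 8 at the 3 stages, 6 to 7 in WT and 4 to 6 in dKO cells to day 28. With the replicate block, calls among the imprinted genes numbered 2, 7 and 11 between genotypes at the 3 stages, and 13 in place of 12 and 7 in place of 6 for the changes of the genotype difference. Together with the GC content and length offsets the block gave 2, 6 and 10. The numbers do not pair the samples. Of 740 alternative values of the imprinted genes described, 604 moved by no more than the replicate SD, 136 moved further and 0 of the called ones turned sign. Of 1307 values of called list genes, 1221 kept their call, 85 lost it and 1 turned sign: the change of the GRB14 genotype difference to passage 4 was -4.85, and ran from -8.94 (without WT NPC passage 2 replicate 2) to 0.38 (without dKO NPC passage 2 replicate 2). GRB14 passed the count filter mainly through WT NPCs at passage 4. Depth limits MEG3, PEG3, H19 and the passage 2 groups most.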

Other observations

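Outside the comparisons made above, 28 of the further imprinted genes in the files fell below the count filter. NLRP2, USP29, MIMT1 and PHLDA2 had 0 counts in all samples, and IGF2-AS, the antisense transcript at IGF2, had 28 counts in 6 samples. CDKN1C, a cell cycle inhibitor gene, had 31 counts in 9 samples, and SNURF, which shares its transcript with SNRPN, had 9 counts in 5 samples.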
